A study of Mus musculus with 11 samples.

Results

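The subject of this report is the ribosome-associated messenger RNA (mRNA) of hippocampal astrocytes, ranked by abundance in all 11 libraries of the series, which are 11 of 11 libraries in the count table. The members were chosen by the label alone, so every library entered, and the genes were ordered by their mean level over the 11 libraries. Of 39017 gene identifiers in the table, 25418 had at least 1 count in any library and were ranked. The values below are descriptions of levels and of their spread, and no contrast between the groups was tested.

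Each library came from the hippocampus of a single female C57BL/6J mouse of 12 to 14 months that carried the mGFAP-Cre 77.6 transgene and a RiboTag allele, in which Cre recombinase attaches an HA tag to the ribosomal protein Rpl22. The 3 groups were WT (sham), 3 mice with intact ERβ and a sham operation, ERβ cKO (sham), 4 sham-operated mice in which the same Cre removed the loxP-flanked exon of the estrogen receptor β gene (Esr2), and WT (GDX), 4 mice whose ovaries had been removed. Because the Gfap promoter drives Cre, any cell that expressed it at any time keeps the tag, and the whole hippocampus was homogenized before the tagged ribosomes were pulled down with anti-HA beads. RNA that stays bound without the tag is counted in the same way.

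Astrocytes take up the glutamate released at synapses and convert it to glutamine, buffer potassium and water, supply lipid and lactate to neurons and secrete matrix proteins that shape synapses. A translatome is the set of mRNAs on ribosomes, and the tag allows it to be read from a single cell type within a mixed tissue without sorting cells. In such bulk samples, fewer cells of a type and less RNA per cell cannot be told apart.

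Levels are given in CPM, the count of a gene per 1000000 counts of the scaled total of its library, and as mean ± SD over the 11 libraries unless a group is named. A longer transcript gives more reads from the same number of molecules, so levels are also given as CPM per kb, the CPM divided by the summed length of the exons in kilobases. The orders given within and between lists and families are orders of CPM and can turn per kb. The total counts ranged from 16956233 in WT (sham) F4 to 18190968 in WT (sham) F1, and the floor set by 3 counts lay between 0.166 and 0.175 CPM. Values listed by library follow the numbers of the mice, which are F1, F3 and F4 for WT (sham), then F1, F3, F4 and F5 for ERβ cKO (sham), and F1 to F4 for WT (GDX). The libraries ERβ cKO (sham) F1, which held a set of genes high in no other, WT (sham) F4, which had the most choroid plexus RNA, and ERβ cKO (sham) F5, least like the rest in gene order, stood apart and are described with the results they touch. Every count stands for a sequenced read and not for an independent molecule, so this floor covers counting error only.

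The first gene of the ranking and a leading neuronal gene are shown by the sequence around their start sites, beside that of Glul, the glutamine synthetase gene, because these genes recur in the results below. The windows, from RefSeq on GRCm38.p6, run from 250 bases before to 50 after the start, 5′ to 3′ on the strand of the gene. Capitals mark the TATA box (TATAAA), the CCAAT box (searched by those letters) or the GC box (GGGCGG), each searched on both strands. They lie at chr2:102706188-102706487 (plus strand) for Slc1a2, chr1:153899679-153899978 (plus strand) for Glul and chr9:37552696-37552995 (minus strand) for Nrgn.
Slc1a2: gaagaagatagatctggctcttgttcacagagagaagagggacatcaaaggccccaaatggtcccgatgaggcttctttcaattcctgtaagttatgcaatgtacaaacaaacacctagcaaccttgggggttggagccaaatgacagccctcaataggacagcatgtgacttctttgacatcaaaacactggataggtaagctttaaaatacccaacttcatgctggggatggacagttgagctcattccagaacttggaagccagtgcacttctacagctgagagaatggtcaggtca
Glul: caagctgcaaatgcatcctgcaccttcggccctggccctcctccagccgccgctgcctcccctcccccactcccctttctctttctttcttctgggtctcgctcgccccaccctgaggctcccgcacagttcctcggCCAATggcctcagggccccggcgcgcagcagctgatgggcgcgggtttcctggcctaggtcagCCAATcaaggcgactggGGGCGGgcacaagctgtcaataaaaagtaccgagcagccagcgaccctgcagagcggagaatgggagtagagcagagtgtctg
Nrgn: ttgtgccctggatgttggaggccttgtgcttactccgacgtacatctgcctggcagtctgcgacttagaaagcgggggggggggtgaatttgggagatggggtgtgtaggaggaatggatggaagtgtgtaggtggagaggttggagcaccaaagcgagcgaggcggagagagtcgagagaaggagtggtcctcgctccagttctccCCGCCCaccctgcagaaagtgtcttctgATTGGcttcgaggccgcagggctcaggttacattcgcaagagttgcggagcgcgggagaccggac
The Slc1a2 window holds none of these letters and has a GC content of 45.7%. The Glul window holds 2 matches of the CCAAT box and 1 GC box at a GC content of 64.3%, and the Nrgn window holds 1 of each. The only Slc1a2 start in the table used lies within the gene as GENCODE draws it on chromosome 2, from 102658659 to 102790784. Of all 32851 windows, 35.7% held the GC box, 37.4% the CCAAT box and 13.6% the TATA box. For the 100 leading genes, of which 70 matched with 105 windows, the shares were 62.9%, 27.6% and 13.3%. For all genes at 10 CPM or more, of which 7832 of 10351 matched, the GC box share was 64.04%, close to that of the leading genes, so its frequency is shared by abundant genes in general. The astrocyte markers described below (32 of 40 matched) held it in 55.0% of windows and the neuronal markers (14 of 20 matched) in 47.1%. The full palindrome of the estrogen response element was present in 23 of all windows (0.0700%), in none of the 100 leading genes and in none of either marker list. A match in these letters is a description of the window and not a binding site.

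The abundance of genes spanned 6.35 orders of magnitude, from 0.00504 CPM for a gene with a single count in 1 library to 11319.5 CPM for the glutamate transporter gene Slc1a2. A mean of at least 1 CPM was reached by 15217 genes, of at least 10 CPM by 10351, of at least 100 CPM by 2267 and of at least 1000 CPM by 79. The 79 genes above 1000 CPM held 15.8% of the summed CPM, the 2188 between 100 and 1000 CPM held 50.9%, and the 8084 between 10 and 100 CPM held 31.0%. Genes between 1 and 10 CPM, 4866 in number, added 2.08%. The largest share therefore lay with the genes between 100 and 1000 CPM, in the upper part of the ranking, and not with its first few genes.

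**Figure D1:**
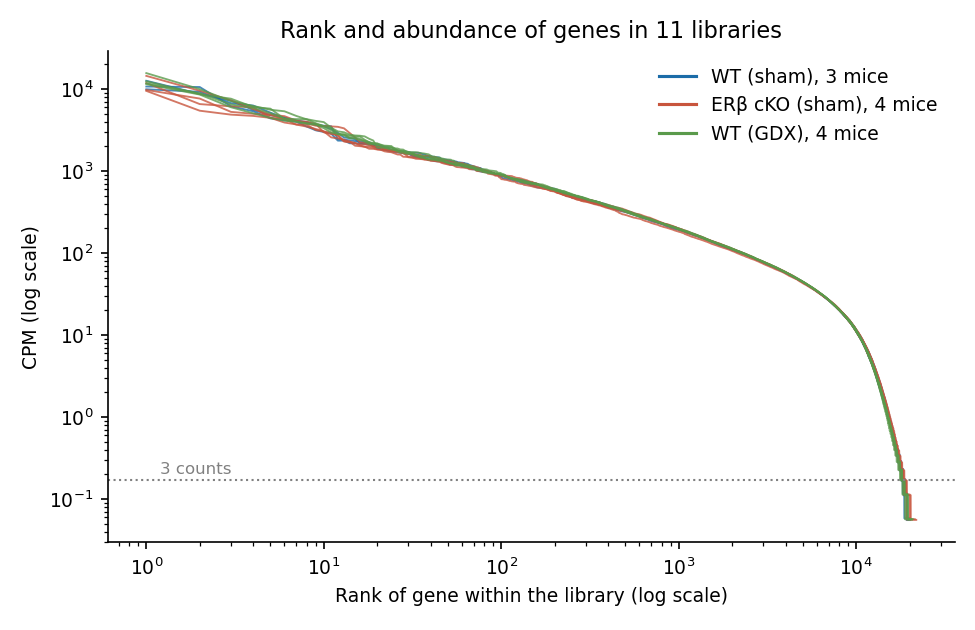
CPM of each gene (log scale) against its rank within the library (log scale), with 1 line per library coloured by group and a dotted line at the level of 3 counts. The 11 lines nearly coincide over most of their length, and they part at the first 10 ranks and below the level of 3 counts (0.166 to 0.175 CPM).

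This shape was alike in all libraries. The 10 leading genes of a library held between 4.67% (ERβ cKO (sham) F3) and 6.45% of its counts, the 100 leading genes between 16.7% (ERβ cKO (sham) F3) and 18.9% (ERβ cKO (sham) F5), and the 1000 leading genes between 48.6% and 50.5%. Between 973 and 1077 genes made up 50% of the counts. The number of genes at 1 CPM or more in a library ranged from 14863 to 15527, while the number with any count ranged more widely, from 19052 in WT (sham) F3 to 21763 in ERβ cKO (sham) F1. Of the genes ranked, 16868 had a count in every library and 1069 rested on a single count in the whole table.

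Protein-coding genes took 95.7% of the summed CPM. Of 21226 protein-coding genes matched to the annotation, 13201 reached 1 CPM and 3914 had no count at all. Long intergenic noncoding RNAs took 1.84%, between 13395 and 28507 CPM per library, processed pseudogenes 0.884%, antisense transcripts 0.532% and the mitochondrial ribosomal RNAs 0.0634%. The genes of chromosome 2 held the largest share of the summed CPM (9.75%) and those of chromosome 11 the next (9.46%), with Slc1a2 leading the first and Aldoc the second.

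Slc1a2, the main glutamate transporter of astrocytes, led the ranking with 11319.5 ± 1824 CPM. Its CPM was 9887, 10533 and 12553 in WT (sham), 9708, 9451, 11796 and 9488 in ERβ cKO (sham), and 11413, 12398, 15574 and 11714 in WT (GDX). The ranges of the 3 groups overlapped, the highest library was WT (GDX) F3, and the gene was first or second in every library. Its exons sum to 13133 bases, and per kb its level was 862, which placed it 10th among protein-coding genes.

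Glul followed at 7270.1 ± 1528 CPM and was 2nd or 3rd in every library. It encodes glutamine synthetase, which turns glutamate and ammonia into glutamine. Its CPM was 6701, 6142 and 7183 in WT (sham), 5243, 5419.8, 6125 and 7257 in ERβ cKO (sham), and 8529, 8612, 9931 and 8829 in WT (GDX). All 4 WT (GDX) libraries lay above the other 7. Of the 50-base stretches of its longest coding transcript, 87.4% were found at no other annotated locus, and its processed pseudogene Glns-ps1 was counted at 438 CPM. How the reads were split between the pair was not tested.

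Gm42418 stood between these genes at 7809 ± 2894 CPM. GENCODE lists it as a long noncoding RNA on chromosome 17 (39846958 to 39848788), and the RefSeq table gives Gm42418 as a synonym of Rn18s-rs5, a pseudogene related to ribosomal RNA 18S, from 39846354 to 39848202 of the same chromosome. Its CPM was 9215, 10675 and 8699 in WT (sham), 7622, 4684, 6527 and 14405 in ERβ cKO (sham), and 4444, 7593, 6197 and 5843 in WT (GDX). The library with the highest value, ERβ cKO (sham) F5, had 3.24 times the level of the lowest, WT (GDX) F1, and both WT (sham) F3 and ERβ cKO (sham) F5 had it in first place. Per kb it was the leading gene of the table at 4265.

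**Figure D2:**
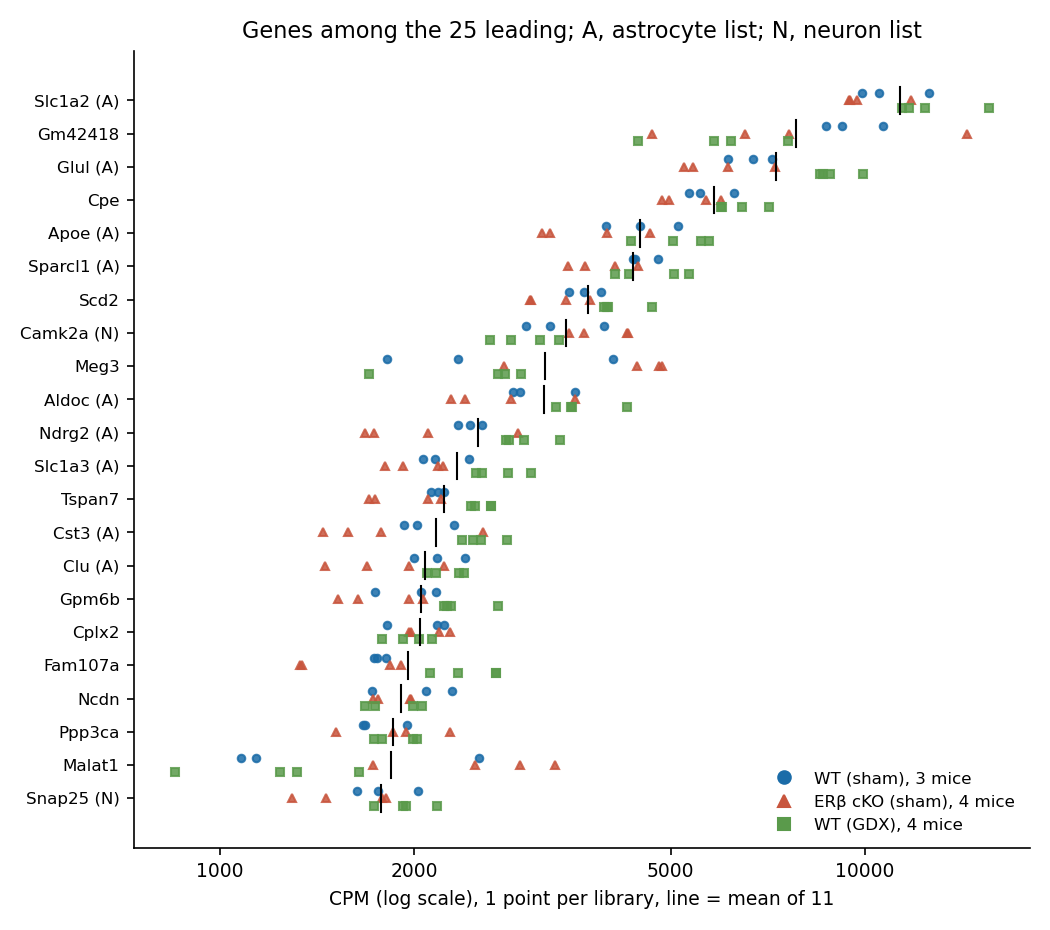
CPM (log scale) of genes among the 25 leading, 1 point per library coloured by group, with a line at the mean of the 11 libraries and A or N for members of the astrocyte or neuron list. Slc1a2 leads at 11319.5 CPM, and the points of Gm42418, Meg3 and Malat1 are the most widely spread.

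Of the 25 leading genes, 10 were on the astrocyte list and 2, Camk2a and Snap25, on the neuron list. The carboxypeptidase gene Cpe, whose product trims prohormones, came 4th (5832 ± 656 CPM), and the lipid carrier gene Apoe came 5th (4482 ± 856 CPM). Sparcl1, which encodes a secreted matrix protein of synapses, reached 4367 ± 547 CPM. Further down came the fatty acid desaturase gene Scd2 (3718 ± 473), Camk2a (a kinase of excitatory synapses, 3440 ± 559) and the imprinted noncoding RNA Meg3 (3197 ± 1147). Aldoc, the aldolase of astrocytes and Purkinje cells, had 3182 ± 587 CPM.

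Other genes of the first 25 lay close together, from 2514 CPM for Ndrg2 to 1776 CPM for the synaptic vesicle fusion gene Snap25. They include the second astrocyte glutamate transporter gene Slc1a3 (2333 CPM), the membrane protein genes Tspan7 (2226) and Gpm6b (2054), the secreted proteins cystatin C (Cst3, 2163) and clusterin (Clu, 2083), and Fam107a (1959). Neuronal functions were present among them through the complexin gene Cplx2 (2045), neurochondrin (Ncdn, 1909) and the calcineurin subunit gene Ppp3ca (1857). Malat1, a nuclear noncoding RNA, had 1839 ± 832 CPM. Their order changed between libraries. In all, 7 genes were among the first 10 of every library, 14 among the first 25, 71 among the first 100 and 375 among the first 500.

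Gfap, whose promoter drives Cre in these mice, was 28th with 1647 ± 284 CPM. Its CPM was 1870.0, 1357 and 1637 in WT (sham), 1357, 1225, 1524 and 1642 in ERβ cKO (sham), and 2116, 1983, 1869 and 1536 in WT (GDX). The groups overlapped. Aldh1l1, a folate enzyme gene used as a marker of all astrocytes, ranked 1552nd with 137 ± 28.5 CPM, between 90.6 and 178 CPM over the libraries.

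Dividing by exon length reordered the list. Of the 100 leading genes by CPM, 61 were also among the 100 leading by CPM per kb, and the median exon length of the first set was 4893 bases against 2539 bases for the second and 4263 bases for all genes at 1 CPM or more. Among protein-coding genes the first places per kb went to Cpe (2235 CPM per kb), Glul (2188), Apoe (2096), Cst3 (1709) and Sparcl1 (1487). Short transcripts of other kinds then rose. The mitochondrially encoded genes mt-Nd1 and mt-Cytb, subunits of respiratory complexes, had 1062 and 914 CPM per kb, and neurogranin (Nrgn), a protein of dendritic spines, had 1054. Mt2, a metallothionein gene with 588 bases of exon, stood at 546 CPM per kb although it was only 503rd by CPM.

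Some leading entries share their position with another gene. Gm20721, on the minus strand, overlaps Gnas on the plus strand of chromosome 2, and its CPM was between 0.942 and 0.962 times that of Gnas in every library. The coefficient of variation of this ratio, 0.619%, was below the 1.10% that independent counting of the same numbers would give. Gm14703 stayed between 0.369 and 0.397 times the level of Syp, which it overlaps on the opposite strand. The coefficient of variation of that ratio, 2.41%, was above the 1.19% of independent counting. The strand setting of the counting is not given in the sources used here, so reads of a gene and of its partner on the other strand cannot be told apart. Of the 100 leading entries per kb, 7 were under 200 bases long, among them Mir5114 within Scd2 and Gm26377 within Eef1a1. Their ratios to the host genes had coefficients of variation of 11.1% and 14.1%, above the 3.72% and 2.95% of independent counting. Reads at the positions shared with the host cannot be told apart, and how they were split was not tested.

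Checked against marker genes, the libraries held astrocyte RNA and neuronal RNA, both abundant. Of the 100 leading genes by CPM, 14 were on the astrocyte list, 7 on the neuron list and 79 on no marker list. All 40 genes of the astrocyte list were above 10 CPM, 38 were above 100 CPM and 13 above 1000 CPM, with a median of 523 CPM. The lowest was Chrdl1, a secreted inhibitor of bone morphogenetic proteins, at 19.4 CPM. All 20 neuronal genes were above 1 CPM and their median was 536 CPM. Per kb, the medians were 121 for the astrocyte list and 125 for the neuron list. The lists have different sizes and members, so these medians describe them and are not a ratio of cells.

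The 40 astrocyte genes summed to 57118 ± 8751 CPM, which was 5.71% of the total. The sum was 56511, 52035 and 59168 CPM in WT (sham), 43907, 43749, 53005 and 56385 in ERβ cKO (sham), and 62028, 63917, 72089.7 and 65499.6 in WT (GDX). The 4 WT (GDX) libraries were the 4 highest, and the ranges of WT (sham) and ERβ cKO (sham) overlapped. The 20 neuronal genes summed to 15653 ± 852 CPM and spread less, from 14518 in WT (sham) F4 to 17066 in ERβ cKO (sham) F4. The ratio of the astrocyte sum to the neuron sum lay between 2.73 in ERβ cKO (sham) F3 and 4.92 in WT (GDX) F3.

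Genes of excitatory cells were among the leading members of the neuron list. The share of neuronal RNA that came from such cells was not computed. Camk2a was the 10th gene of the table, with 3946, 2983 and 3245 CPM in WT (sham), 4277, 3671, 4291 and 3483 in ERβ cKO (sham) and 2827, 3135, 3357 and 2622 in WT (GDX). The WT (sham) values overlapped with those of both other groups, and the lowest ERβ cKO (sham) library lay above the highest of WT (GDX). After it came Snap25, Nrgn (1531 CPM), the calcium sensor of vesicle release Syt1 (1276), the vesicular glutamate transporter gene Slc17a7 (1248) and Map2, a protein of dendrites (1053). Genes of hippocampal principal neurons summed to 1475 CPM, led by the CA1 gene Fibcd1 (401), with Neurod6 (234), Neurod2 (230.3) and Calb1 (170.0) following. The 10 interneuron genes summed to 339.7 CPM. Cck, which pyramidal cells also express, gave 244 CPM of it, and the other 3 members above 10 CPM lay between 15.5 and 46.0 CPM. Slc32a1, the vesicular transporter of GABA, had 3.67 CPM, Pvalb 1.73 and Vip 0.605.

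**Figure D3:**
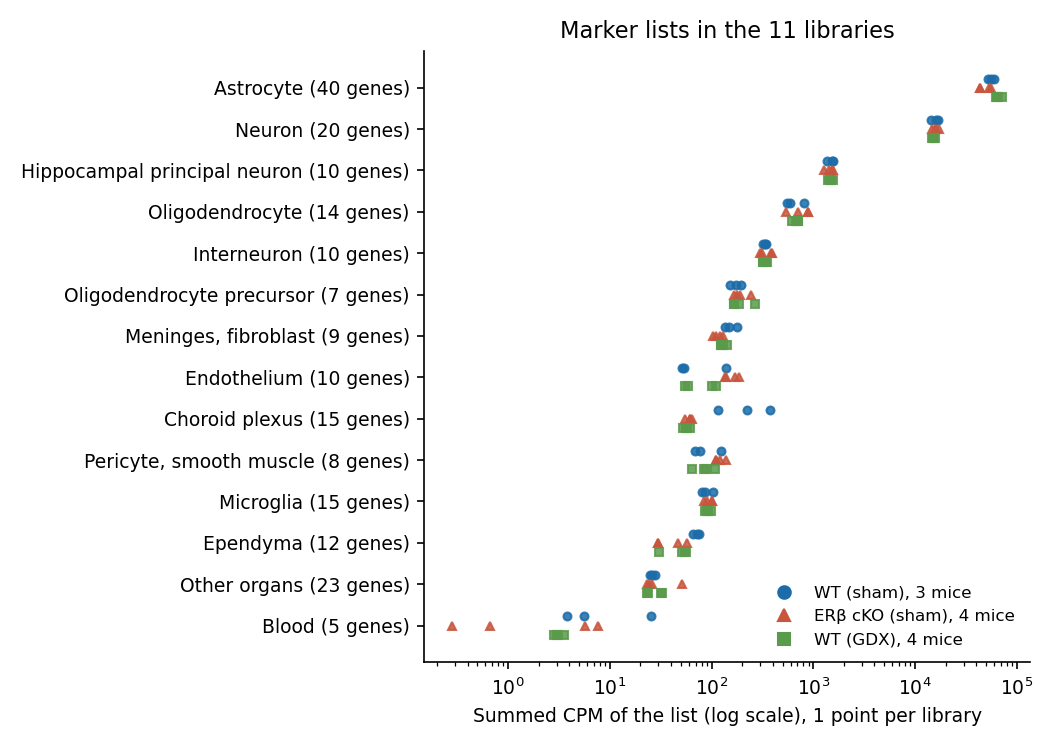
Summed CPM of 14 marker lists (log scale), 1 point per library, with marker and colour for the group and the number of genes beside the name. The astrocyte list (43749 to 72089.7 CPM) lies above the neuron list (14518 to 17066 CPM) in every library, and the choroid plexus list is higher in the 3 WT (sham) libraries than in the other 8.

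Other glial cells contributed far less. The 14 oligodendrocyte genes summed to 698 CPM, with the myelin gene Mbp (281 ± 44.9) first, and the 7 genes of oligodendrocyte precursors to 190 CPM, of which Olig1 gave 101. The 15 microglial genes summed to 92.3 CPM and varied little, from 80.7 to 103 CPM. Their most abundant member was the transcription factor gene Sall1 (27.1 CPM), and the lowest was Tyrobp, an adaptor of microglial receptors, at 0.363 CPM, close to the floor. None of these lists had a member among the 100 leading genes.

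Among the cell type lists, the sums of the blood, choroid plexus and endothelial genes differed most between libraries. The endothelial sum averaged 109 CPM and ran from 50.8 CPM in WT (sham) F1 to 186 in ERβ cKO (sham) F5. Its group means were 158 CPM in ERβ cKO (sham), 81.5 in WT (sham) and 81.2 in WT (GDX). The ERβ cKO (sham) values began at 137 CPM, above all of WT (GDX) and below the highest of WT (sham), 140 CPM. The VEGF receptor gene Flt1 was first of this list (34.2 ± 16.5 CPM). The choroid plexus list summed to 115, 223 and 377 CPM in WT (sham) and to between 52.5 and 64.4 CPM in the other 8 libraries, which did not overlap them. Its defining member Ttr, the thyroxine carrier of choroid plexus, ranged from 0 to 122 CPM. Haemoglobin and other blood genes summed to 5.61 CPM on average and to 25.7 CPM in WT (sham) F4. Of 23 genes of liver, muscle and other organs found in the table, 9 were at 0, and the sum of 28.6 CPM was led by the cardiac myosin gene Myh7 (13.8 CPM).

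Grouped by function, the uptake and recycling of glutamate and GABA had the highest summed CPM (23456), of which Slc1a2 gave 11319.5. The list of secreted proteins summed to 16434 CPM. This order was not computed per kb. Per kb, Slc1a2 (862), Glul (2188) and Slc1a3 (273) stood beside the secreted Cpe (2235), Cst3 (1709) and Sparcl1 (1487). Below Slc1a2, Glul and Slc1a3 stood the GABA transporter gene Slc6a11 (529 ± 79.3 CPM), glutamate dehydrogenase (Glud1, 522 ± 51.4), and GABA transaminase (Abat, 494 ± 59.5). The glutamine exporter gene Slc38a3 had 101 CPM and the cystine-glutamate exchanger gene Slc7a11 63.3 CPM. All 10 genes of this list were above 10 CPM, and 3 of them were among the first 25 of the ranking.

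Genes of ion and water balance also stood high. All 15 were above 10 CPM. Of the sodium pump genes, Atp1b1 had 1556 ± 210 CPM and Atp1b2, the β subunit of glia, 1479.7 ± 239 CPM. The gap junction gene Gja1 (848 ± 172), the potassium channel gene Kcnj10 (652 ± 96.6), the end-foot membrane protein gene Mlc1 (552 ± 95.9), the bicarbonate transporter gene Slc4a4 (504 ± 90.1) and the water channel gene Aqp4 (380.2 ± 79.0) followed. The lowest was the connexin gene Gjb2 at 15.2 CPM.

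In lipid handling, Apoe, Scd2 and Clu were followed by the lipid phosphatase gene Plpp3 (901 ± 136 CPM) and by Acsbg1, an acyl-CoA synthetase (468 ± 85.9). The fatty acid binding proteins were modest, with Fabp5 at 48.9 and Fabp7 at 31.9 CPM. In energy metabolism Aldoc was followed by Aldoa (1372 ± 122), pyruvate kinase (Pkm, 770.4 ± 49.6) and the brain glycogen phosphorylase gene Pygb (488 ± 58.5). Lactate dehydrogenase B (Ldhb, 366.7 ± 56.9 CPM) and A (Ldha, 255.5 ± 23.6 CPM) stood at 234 and 77.2 per kb. The glycolytic gene Eno1 had 65.1 ± 19.4 CPM.

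Among secreted proteins, Cpe, Sparcl1 and Cst3 were followed by Sparc (1038 ± 290.02 CPM), the protease gene Htra1 (598 ± 123), Mfge8, which marks material for phagocytosis (566 ± 99.6), and the proteoglycan genes Bcan (527 ± 79.8) and Ncan (405 ± 45.0). Of receptors, the orphan receptor gene Gpr37l1 (628 ± 108), the sphingosine phosphate receptor gene S1pr1 (509.8 ± 96.7) and Fgfr3 (402 ± 58.3) led. Of transcription factors, Zbtb20 (608 ± 86.6), Nfix (494 ± 29.5) and Nfib (421 ± 21.4) led, Sox9, which sets glial fate, had 143 ± 27.9 CPM, and the Notch target gene Hes5 was lowest at 11.4 CPM.

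Receptors for ovarian steroids were low. The progesterone receptor gene Pgr had 6.45 ± 1.40 CPM. Estrogen receptor α (Esr1) had 5.51 ± 0.938 CPM, from 65 to 117 counts per library, and the membrane receptor gene Gper1 had 1.17 CPM. Esr2, which loses an exon in ERβ cKO (sham), had 2, 4 and 0 counts in WT (sham). It had 1, 0, 4 and 0 in ERβ cKO (sham), and 4, 7, 0 and 0 in WT (GDX). These 22 counts over all libraries (0.113 CPM) lay around the floor of 3 counts. Counts per gene also cover the exons that stay, so the deletion could not be read from the level of this gene. Rpl22, which carries the tag, was counted between 1090 and 1634 times per library.

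Gene families differed in how far a single member dominated. The 333 solute carrier genes held 2.87% of the summed CPM (28738 CPM), of which Slc1a2 alone gave 39.4%. Apoe gave 68.0% of the apolipoprotein sum (6596 CPM), Gja1 70.4% of the connexin sum (1205 CPM, although per kb Gjb6 at 121 stood above Gja1 at 82.7) and Aqp4 96.1% of the aquaporin sum (396 CPM). The 3 metallothionein genes with counts were close to each other, Mt1 at 495 ± 126, Mt3 at 409.8 ± 90.4 and Mt2 at 321 ± 97.2 CPM, with Mt2 first per kb, while Mt4 was at 0.

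Receptors and channels of synapses were found across their families. All 17 entries matched by name to ionotropic glutamate receptors, of which 1 is a noncoding transcript at 109 CPM, were above 1 CPM, with Gria1 (1267 CPM), Grin2b (1052) and Gria2 (850.5) first by CPM. Per kb, Gria2 (54.7) stood above Grin2b (42.3). The 8 metabotropic receptor genes summed to 500.3 CPM, of which Grm5 gave 244, and the GABA-A receptor subunits to 1469 CPM. Potassium channel genes summed to 5130.3 CPM. Sensory receptor and defensin families were nearly absent. Of 1146 olfactory receptor genes 91 had a count and 1 was above 1 CPM, Olfr287 at 16.1 CPM, which gave most of the family sum. The 43 beta defensins summed to 0.800 CPM.

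Families of energy metabolism and translation differed in how far their sums varied between libraries. The highest library sum was 1.22 times the lowest for ATP synthase subunits (3297 ± 202 CPM), 1.27 times for complex I subunits (2655 ± 229) and 1.14 times for translation factors (7334 ± 270). For cytochrome c oxidase subunits (1743 ± 180.1) it was 1.35 times. Vacuolar ATPase subunits (4479 ± 287) and proteasome subunits (2676 ± 154) had ratios of 1.24 and 1.23. The 37 mitochondrially encoded genes summed to 4563 ± 878 CPM, 0.456% of the total, and varied more, from 2956 in WT (sham) F1 to 5691 in ERβ cKO (sham) F3, 1.92 times.

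Cytosolic ribosomal protein genes, usually among the most abundant mRNAs of a cell, were low in this table. The 82 mitochondrial ribosomal protein genes summed to 2397 ± 162 CPM. The 93 cytosolic entries matched by name, of which 87 are protein-coding, summed to 2120 ± 159 CPM, led by Rpl4 at 259 CPM. Most of them have processed pseudogenes, so the share of 50-base stretches, the length of the reads, that occur at no other annotated locus was computed for the longest coding transcript of each gene. Of 87 genes with a value, 83 were below 95% unique. The median level was 3.37 CPM for the 15 genes below 25% unique, 5.002 for 17 genes between 25% and 50%, 9.01 for 34 genes between 50% and 75%, 16.8 for 17 genes between 75% and 95% and 30.9 for the 4 genes above 95%. Across genes, which are not independent replicates, Spearman's rho was 0.34.

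**Figure D4:**
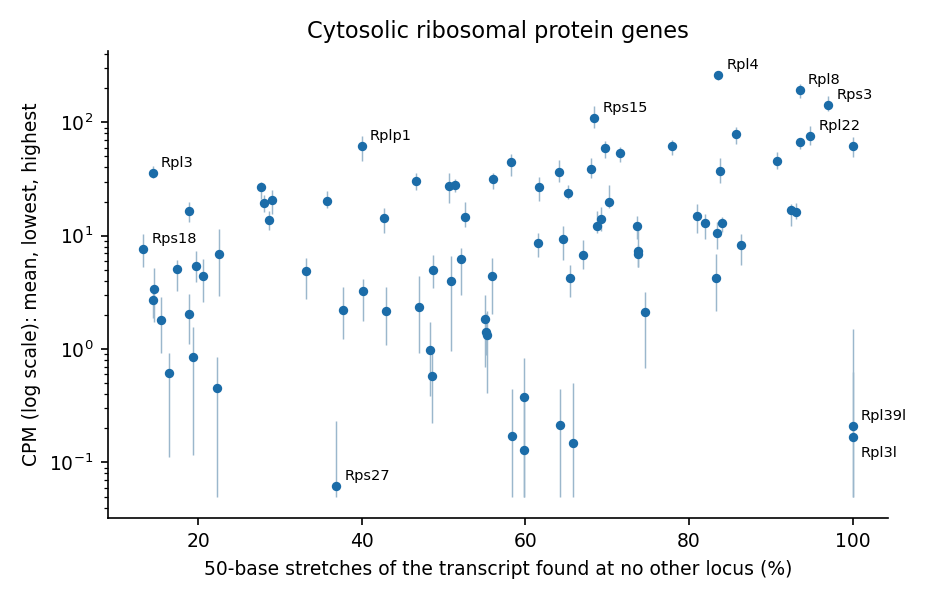
Mean CPM (log scale) of cytosolic ribosomal protein genes against the share (%) of the 50-base stretches of their longest coding transcript found at no other locus, with bars from the lowest to the highest of 11 libraries, which end at 0.05 where the lowest is 0. Rpl4 is highest at 259 CPM, and the genes at the left edge lie mostly below 10 CPM.

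The relation was loose. Rpl3 had 35.7 CPM at 14.4% unique and Rpl22 75.6 CPM at 94.8%, while the tissue-restricted genes Rpl3l and Rpl39l, at 100% unique, had 0.169 and 0.211 CPM. Housekeeping genes with many pseudogenes were also low, with Gapdh at 3.25 ± 1.08 CPM (17.5% unique) and the cyclophilin gene Ppia at 3.79 ± 0.996 CPM (61.2% unique), against 1429 ± 139 CPM for Actb. Of 840 protein-coding genes below 25% unique the median was 0 CPM, and of 17441 above 95% unique it was 11.3 CPM. The treatment of reads that map to several places is not given in the sources used here, and its part in these levels was not tested. Of 95 leading genes with a value among the first 100, 6 were below 95% unique.

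For most genes the means of the 3 groups lay close together. Over the 10351 genes at 10 CPM or more, the median SD of log2 CPM over the 11 libraries was 0.18, the median SD within groups was 0.17, and the median distance between the highest and the lowest of the 3 group means was 0.18 on the log2 scale. This distance was under 0.25 for 68.7% of the genes, over 0.5 for 470 genes (4.54%) and over 1 for 20 genes (0.193%). For 4556 genes (44.0%) it was smaller than the SD within groups. That SD describes single libraries, which spread more than group means do, so this share does not show that the groups were alike. Of the 79 genes above 1000 CPM, 58.2% had a distance under 0.25 and 10.1% a distance over 0.5. The median coefficient of variation was 12.2% and counting alone would give 3.67%. At 1 to 10 CPM the median coefficient of variation was 27.4%, and above 1000 CPM it was 10.9% although counting would give only 0.625%.

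The order of genes agreed closely between libraries. Over the same genes, Spearman's rho between 2 libraries of a group had a median of 0.982 (0.956 to 0.991, 15 pairs), and between libraries of different groups 0.976 (0.952 to 0.986, 40 pairs). These are descriptions across genes that share a library, with no test. The library least like the rest was ERβ cKO (sham) F5, with a mean rho of 0.966, and the most like was WT (GDX) F2, with 0.982.

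**Figure D5:**
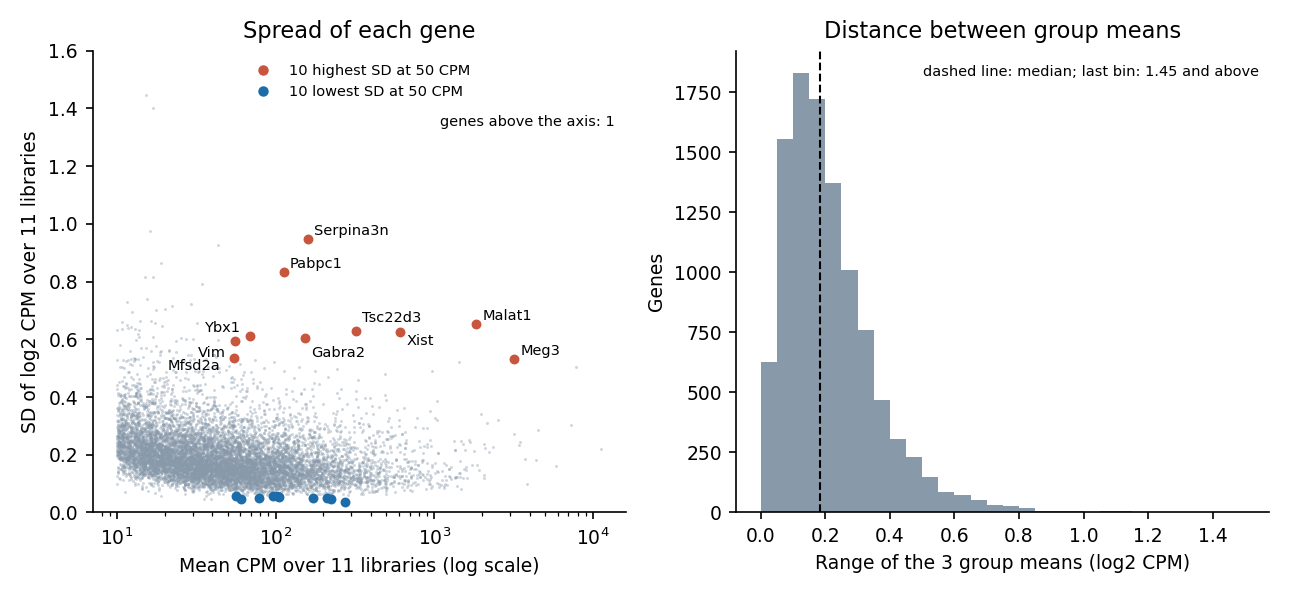
Left, SD of log2 CPM over 11 libraries against mean CPM (log scale), 1 point per gene at 10 CPM or more, with the 10 highest and the 10 lowest genes at 50 CPM or more in colour. Right, number of genes by the range of the 3 group means (log2 CPM), with a dashed line at the median of 0.18; most points on the left lie below an SD of 0.4, and Serpina3n is the highest of the named genes at 0.95.

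The steadiest gene at 50 CPM or more was Smarcc2, a subunit of a chromatin remodelling complex. It had an SD of 0.03 on the log2 scale and lay between 264 and 281 CPM in all 11 libraries. The other 9 with the lowest SD were Stk25, Poglut1, Actr1b, Pdcd6ip, Gtf2i, Letm1, Snw1, Emc1 and Gnpat. The 10 genes with the highest SD were Serpina3n (0.95), Pabpc1 (0.83), Malat1 (0.65), Tsc22d3 (0.63), Xist (0.62), Ybx1 (0.61), Gabra2 (0.60), Vim (0.59), Mfsd2a (0.54) and Meg3 (0.53). Of these, Pabpc1, Ybx1 and Vim were high in ERβ cKO (sham) F1 alone, as described below.

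Serpina3n, a protease inhibitor gene of reactive astrocytes, varied within each group. Its CPM was 80.3, 188 and 269.7 in WT (sham), 172, 163, 73.2 and 49.7 in ERβ cKO (sham), and 169, 179.8, 53.6 and 369 in WT (GDX). The 3 groups overlapped. Tsc22d3, a glucocorticoid-induced gene, varied mainly between groups and had the largest distance between group means of the genes at 50 CPM or more, 1.34 on the log2 scale. It had 202, 185 and 175 CPM in WT (sham), 233, 254, 291 and 243 in ERβ cKO (sham), and 531, 534, 581 and 304 in WT (GDX). The values of the 3 groups did not overlap, and WT (GDX) F4 stood nearest to the ERβ cKO (sham) libraries.

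Gabra2, a GABA-A receptor subunit gene, had the next largest distance, 1.10. It had 152, 208 and 189 CPM in WT (sham), 111, 77.7, 61.4 and 117 in ERβ cKO (sham), and 190.1, 183, 196 and 195 in WT (GDX). All 4 ERβ cKO (sham) libraries lay below the other 7. The other genes of this order were Malat1 (1.05), the lysolipid transporter gene Mfsd2a (0.95), Thrsp (0.94), the transcriptional inhibitor gene Id4 (0.86), Fam163a (0.84), A330023F24Rik (0.84), Coq8a (0.81) and Mt2 (0.81). The group mean of Mt2 was 435 CPM in WT (GDX), 266 CPM in WT (sham) and 249 CPM in ERβ cKO (sham).

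The genes of the noncoding list, which does not hold Gm42418, were ordered alike over the groups. Malat1 had 1139.6, 1078 and 2518 CPM in WT (sham), 2488, 2923, 1728 and 3304 in ERβ cKO (sham), and 1242, 1316, 1644 and 852 in WT (GDX). WT (sham) overlapped both other groups, while every ERβ cKO (sham) library lay above every WT (GDX) library. All 9 measured genes of the noncoding list had their highest group mean in ERβ cKO (sham), and 8 had their lowest in WT (GDX), against 34.0% and 31.8% of all genes at 10 CPM or more. Gm42418 had its highest group mean in WT (sham), 9529.6 CPM, against 8309.6 CPM in ERβ cKO (sham) and 6019 CPM in WT (GDX). The summed list ran from 4210.4 CPM in WT (GDX) F4 to 12044 CPM in ERβ cKO (sham) F5, and within WT (sham) from 4594 CPM in F1 to 10368 CPM in F4.

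Marker lists differed in how their levels were ordered over the groups. Of the 40 astrocyte genes, 37 had their highest group mean in WT (GDX) and 39 their lowest in ERβ cKO (sham), and the median distance between group means was 0.45 on the log2 scale. Over all 10351 genes, 41.2% were highest in WT (GDX) and 42.7% lowest in ERβ cKO (sham), with a median distance of 0.18. Of the 19 neuronal genes at 10 CPM or more, 10 were highest in ERβ cKO (sham) and 12 lowest in WT (GDX), where the shares over all genes were 34.0% and 31.8%, and the median distance was 0.10. Genes of a list are measured in the same libraries and are not independent, and CPM is a share of a fixed total, so a higher share of some genes lowers that of the rest. Whether the astrocyte genes were higher per cell or came from a purer pull-down was not tested.

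A single library stood apart by a set of genes. This library, ERβ cKO (sham) F1, also had a low mean rho with the others, 0.969, next to the lowest (0.966 in ERβ cKO (sham) F5). In ERβ cKO (sham) F1, 78 genes with a mean of at least 1 CPM were more than 2 times higher than in the next library, against 0 to 10 genes in each of the other 10 libraries, 10 in WT (sham) F4. Of the 78 genes, 31 were processed pseudogenes and 44 protein-coding, and together they added 0.250% to the total of this library. These genes were chosen after their values were seen.

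The poly(A)-binding protein gene Pabpc1 had 498 CPM in this library and 68.5 to 80.4 CPM in the other 10, and the RNA-binding protein gene Ybx1 218 CPM against 47.0 to 58.7. The intermediate filament gene Vim had 156 CPM against 31.7 to 63.1 and the cardiac actin gene Actc1 74.95 CPM against at most 0.222. Without this library the SD of log2 CPM over the other 10 was 0.08 for Pabpc1, 0.09 for Ybx1 and 0.26 for Vim. The cause was not tested.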

How the data were processed

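Ribosome-associated RNA from the hippocampus of 11 female mice was sequenced on a HiSeq3000 as 50-base single reads after a stranded mRNA library kit. The authors deposited whole-number counts per gene for each mouse, made with bcl2fastq (version 2.17), FastQC, Trimmomatic and QuasR on mm10. The settings for strand and multi-mapping reads, like the annotation and the aligner version, were not given in the sources used here. Of 39017 identifiers, 37607 matched GENCODE M21, which supplied names, positions and exon lengths; the 1410 others held 0.515% of the counts.

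For scaling, 18882 genes were kept, leaving out those below a count of 1 in over 3 libraries. Scaling factors came from the TMM method of edgeR 4.0.16 in R 4.3.3 (0.975 to 1.04), and CPM were computed for all genes. Spread was taken on log2 CPM with a prior count of 2 for genes at a mean of 10 CPM or more. The number and depth of libraries, 16956233 to 18190968 counts, set the precision. The code was tested on simulated data. Tables and plots were made in Python 3.11.15. Groups came from the sample labels, and each library is a single mouse.

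Genes named in the text were the 25 leading genes by CPM and by CPM per kb, the leading and lowest members of each list, the 3 leading members of each family, the 10 genes with the lowest SD, highest SD or largest range of group means at 50 CPM or more, and the genes of the study and of the housekeeping list. A few others were named after their values were seen. Some genes that meet this rule are not reported here. The lists (25, with 311 genes, 4 of them not in the table) and the members were chosen with earlier results of these data known. Library size alone, DESeq2 1.42.0 size factors, other filters and leaving out each library were tried as alternatives.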

Additional observations from a re-analysis of the deposited data

Results flagged for a closer look

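In groups of 4 libraries, a library was singled out when its gap to the nearest of the others was too large a share of the range of the group by Dixon's criterion at the 95% level. WT (sham), with 3 libraries, was not examined in this way. Chance alone singles out about 1 in 20 groups, and 7 of 106 groups examined met the criterion, so these are values to look at again and not a pattern.

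Within ERβ cKO (sham), the genes of other organs summed to 51.8 CPM in F1, far above the next library at 25.9 CPM. Slc1a2 was at 11796 CPM in F4 with the next at 9708 CPM. The noncoding list was lowest in F4 at 6867 CPM, where the nearest library had 11750.2 CPM.

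Within WT (GDX), F3 was highest for the glutamate and GABA list (31413 CPM, next 26299), for Scd2 (4679.8 CPM, next 3996) and for Gpm6b (2704 CPM, next 2279). The noncoding list was lowest in F4 at 4210.4 CPM, with the nearest library at 6657 CPM.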

How the results depend on the processing

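Of 183 values recomputed under alternatives, 173 moved by less than the spread between libraries or stayed within 1.5 times a count. All 121 that left out a single library were among them. This limit is wide, since leaving out a single library can hardly move a mean by the spread between libraries. The share held by the 100 leading genes and the number shared by every library cannot change with the scaling factors. The count of 173 is therefore no measure of stability. Without each library in turn, the number of genes at 1 CPM or more was 15177 to 15247, the astrocyte sum 55743 to 58413 CPM, and the number of genes among the 100 leading in every library 71 to 74. The filter on low genes set the measures of spread. With no filter beyond that of the study, the median SD of log2 CPM was 0.26 against 0.18, the median range of group means 0.27 against 0.18 and the median Spearman's rho between libraries 0.986 against 0.978; at 1 CPM or more they were 0.22, 0.23 and 0.986. Per kb of exon the astrocyte list summed to 15055 and the neuron list to 3583, and 61 of the 100 leading genes by CPM were kept. Without WT (sham) F4 and ERβ cKO (sham) F1 and F5, an alternative chosen after seeing the data, the median range of group means was 0.22. The sample labels give no pairs of mice, and no contrast was tested. Genes with a mean under the floor of 3 counts, such as Esr2 (0.113 CPM), cannot be ranked against each other at this depth.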

Other observations

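The second gene of the ranking, Gm42418, had a companion among the identifiers that no annotation used here names. ENSMUSG00000045999 stood 83rd with a mean of 965 CPM and ranged from 553 to 1874 CPM, and its level was between 0.111 and 0.137 times that of Gm42418 in all 11 libraries, a coefficient of variation of 7.33%. It was named after its values were seen. No explanation was tested.

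Some genes known from other tissues were counted at a low level in every library. The podocyte gene Nphs1 had 3.90 ± 1.66 CPM, from 1.75 to 6.23 CPM, and the cardiac gene Myh7 13.8 ± 3.94 CPM, from 6.08 to 20.1 CPM. Acta1, the skeletal muscle actin gene, was at 38.1 CPM in ERβ cKO (sham) F1, at 7.13 CPM in the next library and at 2.98 CPM in the lowest.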
